A study of Mus musculus with 2 samples.

Results

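The genes described here are 6 aldehyde dehydrogenases of the mouse lung: *Aldh1a1*, *Aldh1a2* and *Aldh1a3*, the cytosolic retinaldehyde dehydrogenases, *Aldh1a7*, a close paralogue of *Aldh1a1*, *Aldh2*, the mitochondrial enzyme best known for clearing acetaldehyde, and *Aldh3a1*, a cytosolic enzyme of aldehyde detoxification. They were chosen by gene symbol, and all 6 were found among the 32285 genes listed in both libraries. They were measured in live lung cells that had been sorted as UV-positive, by the fluorescence of the retinoids they hold. The mice were wild type C57BL/6 males, 3 months of age, and 2 libraries of this 1 condition were made on separate occasions, here replicate 1 and replicate 2. The number of mice behind each library is not given in the sources used here. P-values thus rest on how differences between cell groups vary over these 2 libraries, with a spread for each gene partly borrowed from other genes. They do not measure the spread between mice. The sort leaves out cells with little retinoid.

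Retinol is stored in cells as retinyl ester, is oxidised reversibly to retinaldehyde by retinol and alcohol dehydrogenases, and is then oxidised irreversibly to all-trans-retinoic acid by the Aldh1a enzymes. Retinoic acid acts through RAR and RXR nuclear receptors and is removed by Cyp26 enzymes. In the lung, lipid-laden fibroblasts of the alveolar wall are a known store of retinyl ester, and airway club cells are known for high levels of several aldehyde dehydrogenases.

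Unique molecular identifiers (UMIs) each stand for 1 captured transcript. Cells with fewer than 200 genes or over 10% of UMIs from mitochondrial genes were left out, and the others were placed in a class when the UMIs of 3 marker genes came to 3 or more for exactly 1 class. Of 9634 and 9988 kept cells in replicates 1 and 2, 8897 and 8233 fell in 1 class. Stromal cells with no UMI of *Dcn*, which encodes the matrix proteoglycan decorin, were called alveolar (5805 and 5545 cells), those with 3 or more adventitial (1017 and 998 cells), and the 823 and 895 cells with 1 or 2 were kept apart. The other classes held 56 and 360 endothelial, 930 and 101 epithelial, and 266 and 334 immune cells. Replicate 2 held more UMIs (93970185 against 48762735), 16.4% of its cells against 4.36% in replicate 1 held markers of several classes and were left out, and the libraries shared 23 cell barcodes. Each class was high in marker genes that the rule did not use: 6 epithelial markers summed to 292911 and 240370 CPM (UMIs of a gene scaled to a fixed total per group and library) in epithelial cells, against 608 and 194 CPM in alveolar cells.

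*Aldh1a1* and *Aldh1a7* are neighbours, separated by 49487 bases and transcribed towards each other. On GRCm38, *Aldh1a1* (ENSMUSG00000053279) lies on the plus strand of chromosome 19 from 20492715 to 20643465, and *Aldh1a7* (ENSMUSG00000024747) on the minus strand from 20692953 to 20727562. Their coding sequences, of 1503 bases each, were 91.7% identical, whereas *Aldh1a1* shared 68.0% with *Aldh1a2*, 67.3% with *Aldh1a3*, 64.7% with *Aldh2* and 48.1% with *Aldh3a1*. *Aldh1a2* (ENSMUSG00000013584) lies on the plus strand of chromosome 9 from 71215789 to 71296243, and *Aldh1a3* (ENSMUSG00000015134) on the minus strand of chromosome 7 from 66390890 to 66427517. *Aldh2* (ENSMUSG00000029455) lies on the minus strand of chromosome 5 from 121566027 to 121593824, and *Aldh3a1* (ENSMUSG00000019102) on the plus strand of chromosome 11 from 61207537 to 61218421.

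The 110 bases before the annotated start of the neighbouring paralogues are shown because the genes proved to be expressed in different cell classes. They are given 5′ to 3′ on the strand of each gene, from RefSeq on GRCm38.p6, at chr19:20601858-20601967 (plus strand, the more downstream of 2 annotated starts of *Aldh1a1*) and chr19:20727557-20727666 (minus strand, *Aldh1a7*), with the bases that differ in capitals.
Aldh1a1: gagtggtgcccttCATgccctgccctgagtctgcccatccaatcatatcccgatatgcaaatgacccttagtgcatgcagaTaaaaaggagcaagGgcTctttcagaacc
Aldh1a7: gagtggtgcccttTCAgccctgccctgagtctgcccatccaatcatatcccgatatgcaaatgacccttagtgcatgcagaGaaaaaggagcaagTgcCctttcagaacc
The sequences differed at 6 of 110 positions (94.5% identity) and shared an unbroken run of 65 bases. The window at the other start of *Aldh1a1* was 50.9% identical to that of *Aldh1a7* over 250 bases, against 65.7% for the one shown. In the 140 bases further upstream, identity of the aligned sequences fell to 45.6%. The shared run held the letters CCAAT, found on either strand in 20.2% of 32851 promoter windows of 110 bases, and the octamer ATGCAAAT, found in 0.731% of them. TATAAA, present in 5.94% of windows, and AGGTCA, the core letters bound by many nuclear receptors and present in 6.45%, were not found in either window. RefSeq windows were also listed for *Aldh1a2*, and none for *Aldh1a3*, *Aldh2* and *Aldh3a1*.

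*Aldh1a1* was a gene of the fibroblasts in these libraries, at levels among the highest of the aldehyde dehydrogenases. It reached 769 CPM in alveolar fibroblasts of replicate 1 and 1808 CPM in replicate 2 (1288 ± 734 CPM, mean ± SD, n = 2 libraries). Stromal cells with 1 or 2 *Dcn* UMIs held 723 and 1612 CPM. Adventitial fibroblasts held 516 and 1182 CPM. The order alveolar, intermediate, adventitial was the same in both libraries, while the ranges of these groups over the libraries overlapped.

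Outside the stroma *Aldh1a1* was low. Endothelial cells held 50.2 and 63.8 CPM, from 6 and 118 UMIs. Epithelial cells held 1.50 and 13.2 CPM, and immune cells 1.14 and 17.1 CPM. Both libraries of each of these 3 classes lay below both libraries of every stromal group. The order of epithelial and immune cells differed between the libraries.

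*Aldh2* was spread over all classes. Alveolar fibroblasts held 1316 and 977 CPM (1146 ± 240 CPM, mean ± SD, n = 2 libraries). Endothelial cells came next in each library, at 1096 and 818 CPM, followed by stromal cells with 1 or 2 *Dcn* UMIs at 1018 and 767 CPM and adventitial fibroblasts at 780 and 586 CPM. These neighbours overlapped in their ranges over the libraries. Epithelial cells held 412 and 395 CPM and immune cells 180 and 88.8 CPM, below all of the former groups in both libraries.

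*Aldh1a7* was a gene of the epithelial cells. It reached 68.9 CPM in replicate 1 and 71.0 CPM in replicate 2, from 596 and 97 UMIs, and these values differed by a factor of 1.03. At least 1 UMI was found in 44.8% of epithelial cells of replicate 1 (95% Clopper-Pearson interval 41.6 to 48.1%) and in 56.4% of those of replicate 2 (46.2 to 66.3%), against 0.0345% and 0.0541% of alveolar fibroblasts; median depths were 9341 and 13627 UMIs in epithelial and 3958 and 6545 UMIs in alveolar cells. After each cell was thinned to 2000 UMIs, the epithelial shares were 13.5% and 14.9%. Alveolar fibroblasts of the 2 libraries held 2 and 3 UMIs of *Aldh1a7* beside 18026 and 70107 of *Aldh1a1*, and epithelial cells held 13 and 18 UMIs of *Aldh1a1*. No stretch of 31 bases in the last 300 bases of the *Aldh1a1* transcript occurred in the *Aldh1a7* transcript, so the 3′ ends that this chemistry reads are distinct in sequence at that length.

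*Aldh3a1* was low, and highest in the epithelial cells, with 4.86 and 7.32 CPM from 42 and 10 UMIs, 1 to a cell. Adventitial fibroblasts held 1.42 and 0.604 CPM and alveolar fibroblasts 0.256 and 0.103 CPM. No UMI was found in endothelial or immune cells, where 3 UMIs would have given 25.1 and 1.62 CPM or 3.42 and 1.65 CPM.

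*Aldh1a2* and *Aldh1a3*, the retinaldehyde dehydrogenases of the embryo and of several epithelia, were close to the limit of these libraries. *Aldh1a2* gave 10 UMIs in 6 adventitial fibroblasts of replicate 1 and 11 UMIs in 5 of replicate 2, all of them in cells with 12 or more *Dcn* UMIs. In alveolar fibroblasts it gave 0 UMIs in 5805 cells, which allows a share of cells with a UMI of up to 0.0517% (3 of 5805; the limit does not cover cells that express the gene without a captured UMI), and 4 UMIs in 5545 cells. Immune cells held 2 and 3 UMIs, of which both in replicate 1 were in the 13 dendritic-like cells, but none in replicate 2 was in its 24 dendritic-like cells. *Aldh1a3* gave 5 and 8 UMIs in adventitial fibroblasts, 1 and 10 in alveolar fibroblasts, and 2 (in 1 cell) and 6 (in 4 cells) in endothelial cells. Intervals and limits from counts cover counting error only.

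**Figure D1:**
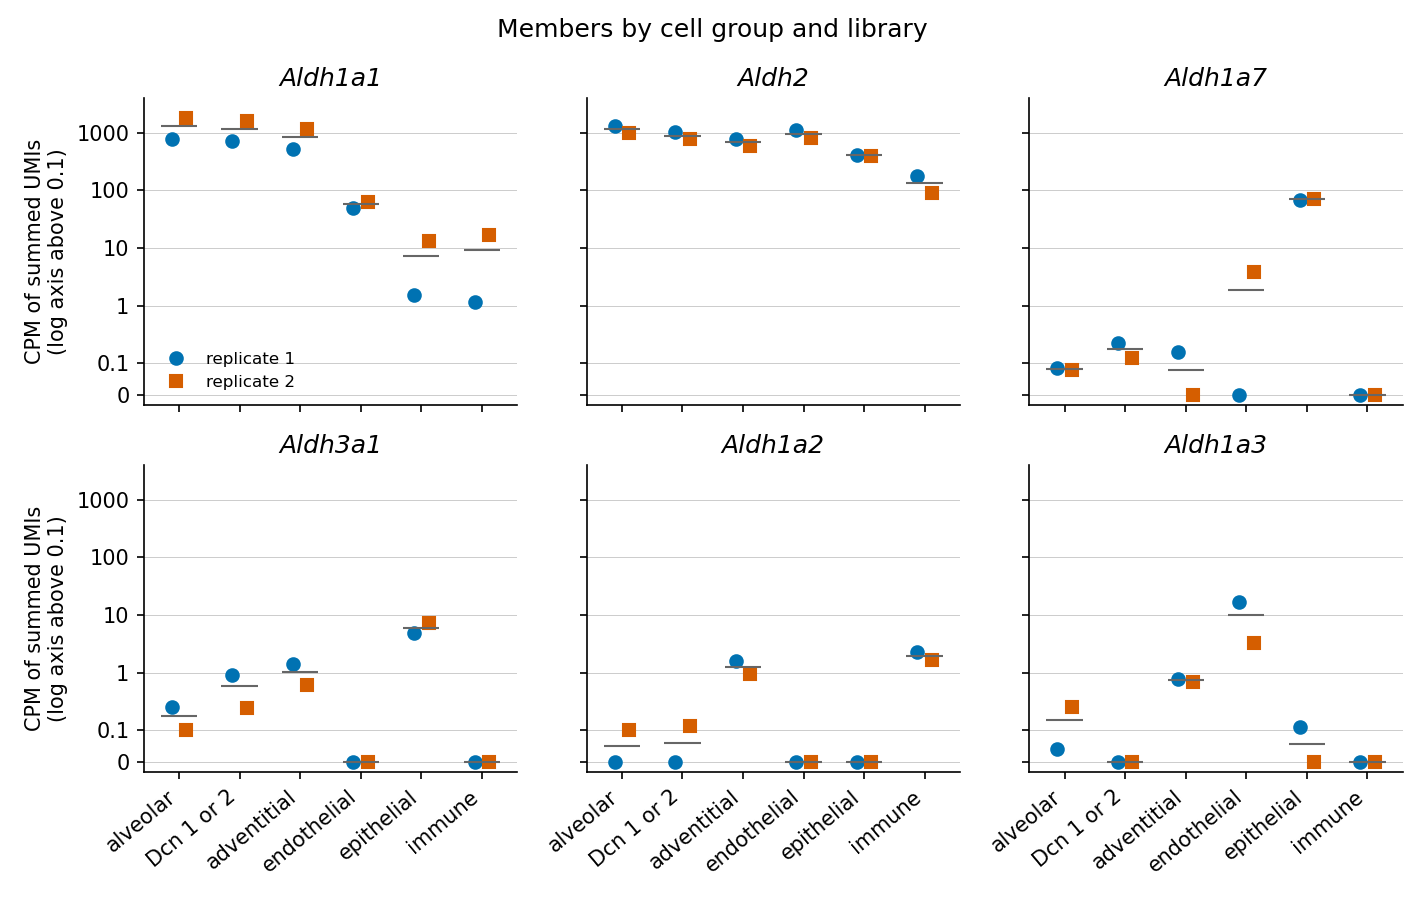
CPM of the 6 genes (y axis, logarithmic above 0.1, with 0 drawn at its own place) in 6 groups of cells (x axis), with a point for each library and a grey line at their mean. Aldh1a1 falls from 769 and 1808 CPM in alveolar fibroblasts to 17.1 CPM or less in epithelial and immune cells, Aldh2 stays at 88.8 CPM or more in every group, and Aldh1a7 stands at 68.9 and 71.0 CPM in epithelial cells.

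The classes also differed in the make-up of the family. A UMI counts 1 transcript whatever its length, so levels of different genes are set side by side on this scale. Differences between genes in how well their transcripts are captured and assigned were not measured. Of the summed CPM of 21 aldehyde dehydrogenase genes in alveolar fibroblasts, *Aldh2* made up 57.0% and *Aldh1a1* 33.3% in replicate 1, whereas *Aldh1a1* made up 60.1% and *Aldh2* 32.5% in replicate 2. The same change of order between the libraries was found in the other stromal groups. In endothelial cells *Aldh2* made up 85.6% and 80.6%. In epithelial cells *Aldh2* made up 58.8% and 53.7% and *Aldh1a7* 9.83% and 9.64%.

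**Figure D2:**
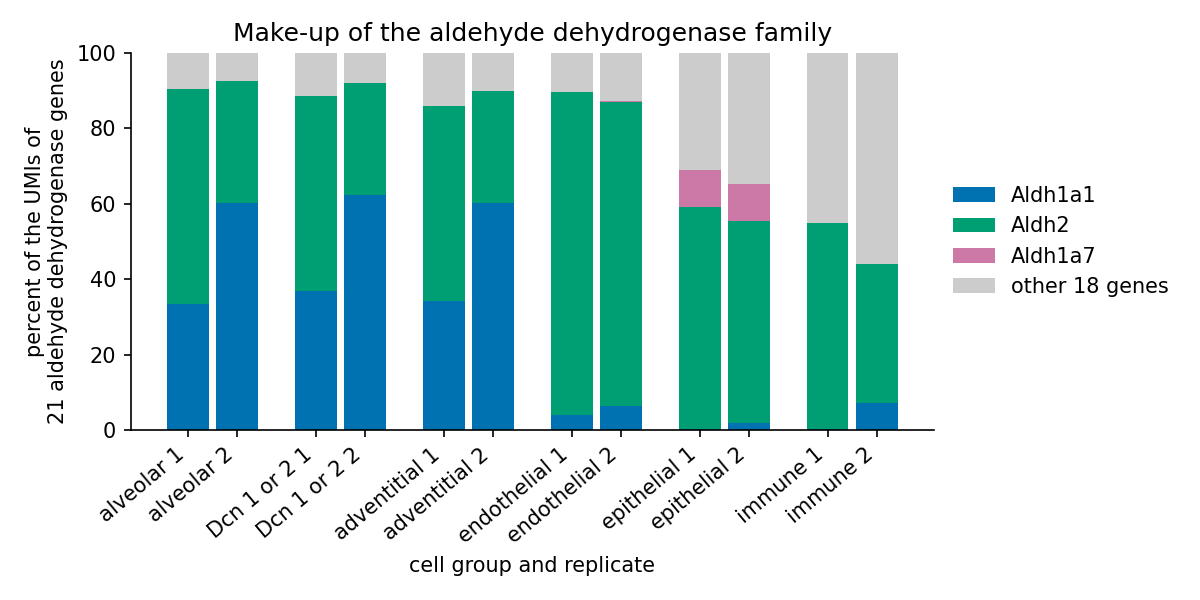
Share of the summed CPM of 21 aldehyde dehydrogenase genes (y axis, percent) in each group of cells and library (x axis; 1 and 2 are the replicates). Aldh1a1 and Aldh2 together fill most of each stromal bar but change places between libraries, Aldh2 fills 85.6% and 80.6% of the endothelial bars, and Aldh1a7 is visible in the epithelial bars.

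The change of order came from a difference between the libraries. *Aldh1a1* was 2.35 times higher in replicate 2 than in replicate 1 in alveolar, 2.23 times in intermediate and 2.29 times in adventitial cells. In alveolar cells this put it at percentile 97.9 of 3059 genes with at least 50 CPM, where the median log2 ratio was 0.02. *Aldh2* was lower in replicate 2 in all 3, with ratios of 0.742, 0.753 and 0.751. *Lrat*, which esterifies retinol for storage, went the other way from *Aldh1a1*, at 296 and 109 CPM in alveolar cells. The libraries differ in UMIs per cell and in the occasion on which they were made, and these cannot be told apart from other differences between their cells.

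Adventitial fibroblasts were compared with alveolar fibroblasts to ask whether the enzymes differ within the stroma. The test was edgeR's quasi-likelihood test on UMIs summed by group and library, blocked on library, and p-values were adjusted by Benjamini-Hochberg across the 13313 genes tested. None of the 5 members that passed the filter on low counts was called at an adjusted p under 0.05, where 8.69% of all genes were called. At an unadjusted p under 0.05 there were 3 (*Aldh2*, *Aldh3a1* and *Aldh1a3*), against 18.7% of all genes, and DESeq2 called 0 of the 5 at an adjusted p under 0.05, against 4.61% of all genes. The 5 include *Aldh1a7*, with 1 and 0 adventitial and 2 and 3 alveolar UMIs. It was not tested when only the 2 stromal groups were fitted. *Aldh2* differed by -0.72 ± 0.22 on the log2 scale (fitted fold change ± SE, unadjusted p = 0.00506, adjusted p = 0.0556), with ratios of 0.593 and 0.600 in the 2 libraries. *Aldh1a1* differed by -0.56 ± 0.28 (unadjusted p = 0.0649, adjusted p = 0.311), with ratios of 0.671 and 0.654. The ratios of each gene were close in both libraries, and the SE was that of a spread shared with the endothelial, epithelial and immune sums. In a fit of the 2 stromal groups alone, both were called (adjusted p = 0.00266 for *Aldh2* and 0.00875 for *Aldh1a1*), as were 21.1% of all genes, 2768 in place of 1157. The log2 values of the low genes were 2.43 for *Aldh3a1* (adjusted p = 0.0740) and 2.06 for *Aldh1a3* (adjusted p = 0.234), neither of which passed the test. *Aldh1a2* did not pass the filter. In the fit of the 2 stromal groups *Aldh3a1* (2.51, adjusted p = 0.0260) and *Aldh1a2* (4.14, adjusted p = 0.0171) were called too. Both reached the filter of that fit only through their adventitial sums, so they were tested because they were high in the group compared. *Aldh3a1* was also called in cells of at least 4000 UMIs (adjusted p = 0.00802, with 9.93% of all genes called). With no filter on low counts it was called as well (adjusted p = 0.0304, with 7.61% called). The adventitial level of *Aldh1a2* was 12.3 times that of alveolar cells in replicate 1 if the latter is taken at 3 UMIs. With the 0 alveolar UMIs of replicate 1, the lower 95% counting limit of this ratio was 8.30. In replicate 2 the adventitial level of *Aldh1a2* was 9.21 times the alveolar level (95% counting interval 2.73 to 39.7). These limits treat each UMI as independent. The 10 and 11 adventitial UMIs came from 6 and 5 cells, so the limits may be too narrow.

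Across finer steps of *Dcn*, *Aldh1a1* went from 769 CPM in replicate 1 and 1808 CPM in replicate 2 at 0 UMIs to 437 and 1138 CPM at 12 or more, and was lower at each of the 5 steps in both libraries. *Aldh2* went from 1316 and 977 CPM to 746 and 579 CPM, and was lower at each step except from 3 to 5 to 6 to 11 UMIs in replicate 1 (823 and 828 CPM). The median UMIs per cell moved with *Dcn*, from 3958 and 6545 at 0 to 6362 and 11025 at 12 or more. With every cell thinned to 2000 UMIs, *Aldh1a1* gave 1.50 and 3.56 UMIs per alveolar cell and 1.04 and 2.37 per adventitial cell. The groups were still those set by *Dcn* before thinning, and the thinned sums did not give a call for *Aldh1a1* (-0.53, adjusted p = 0.227), where 8.73% of all genes and 1 of 3 tested members were called. Adventitial cells with *Pi16*, a marker of fibroblasts around vessels and airways, held 299.9 and 805 CPM of *Aldh1a1*, against 579 and 1218 CPM in those without.

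**Figure D3:**
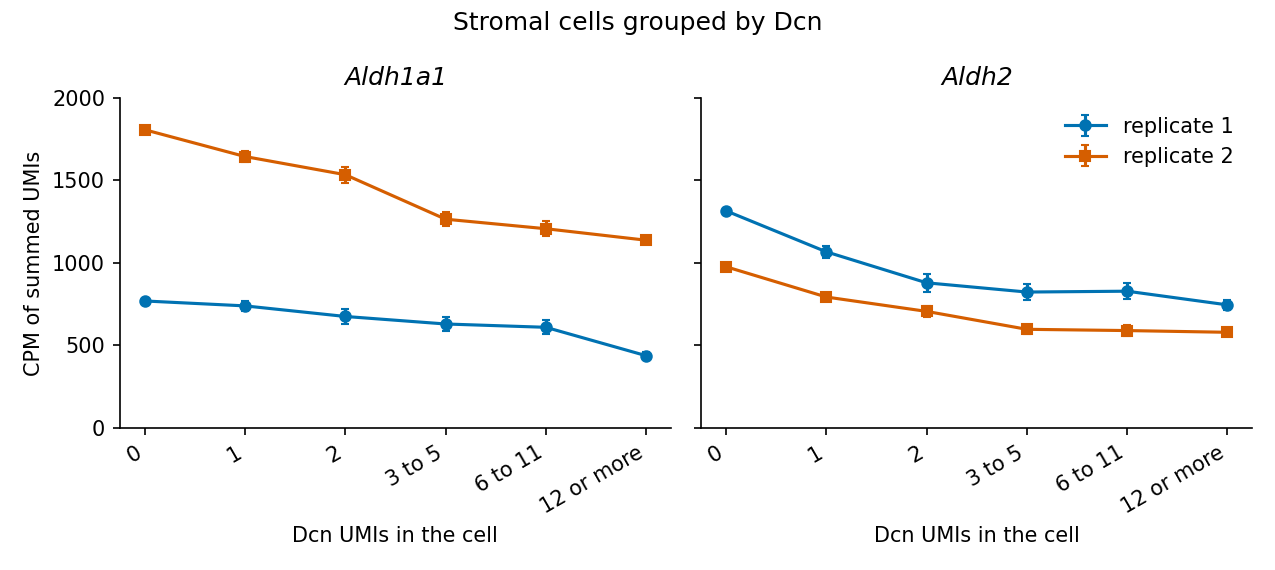
CPM of Aldh1a1 and Aldh2 (y axis) in stromal cells grouped by their Dcn UMIs (x axis), 1 line for each library, with bars of the 95% counting error, which do not cover differences between libraries. Aldh1a1 goes from 769 and 1808 CPM without Dcn to 437 and 1138 CPM at 12 or more Dcn UMIs, and Aldh2 from 1316 and 977 to 746 and 579 CPM.

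Among alveolar fibroblasts, thinned to 2000 UMIs, *Aldh1a1* was found in 72.1% and 92.4% of cells and *Aldh2* in 91.0% and 83.8%. The counts of *Aldh1a1* had a variance of 1.35 and 1.73 times their mean, where pure counting error gives equal values. Cells with 0, 1 and 2 or more *Lrat* UMIs held means of 1.47, 1.55 and 1.56 *Aldh1a1* UMIs in replicate 1. In replicate 2 they held 3.53, 3.71 and 3.68. The SE of these means was 0.0255 to 0.0555 and 0.0365 to 0.190, taken over the cells within each library. Cells are not replicates, so these SE do not cover differences between libraries or mice. The correlation of *Aldh1a1* with *Aldh2* over these cells was 0.07 and 0.11, too weak in sparse counts to be read.

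Endothelial cells were compared with alveolar fibroblasts by the same test, in which 3 of the 5 tested members were called, against 33.0% of all genes. *Aldh1a1* fell by 4.97 ± 0.41 on the log2 scale (adjusted p = 1.69e-08). *Aldh2* was not called (-0.52 ± 0.23, adjusted p = 0.0922), and its CPM was 0.833 and 0.838 times the alveolar value. The fitted change is larger than these ratios because of the TMM scaling of the fit, which sets the bulk of genes level between groups: the factor of endothelial sums was above that of alveolar sums by 0.28 on the log2 scale, which lowers endothelial values by as much. The other called members, *Aldh1a7* (adjusted p = 3.03e-04) and *Aldh1a3* (adjusted p = 0.00722), were higher on 7 and 8 endothelial UMIs in both libraries together, and all 7 of *Aldh1a7* came from 5 cells of replicate 2. In a fit of endothelial and alveolar sums alone, *Aldh1a7* and *Aldh3a1* did not pass the filter on low counts and were not tested. Their place among the 5 thus rests on the other groups. *Aldh1a3* reached the filter only through its endothelial sums (16.7 and 3.25 CPM), so it was tested because it was high in the group compared. It was not tested in cells of at least 4000 UMIs or after thinning. The count of 3 of 5 is thus no result about the members. The 6 epithelial markers summed to 636 and 218 CPM in endothelial cells, against 608 and 194 CPM in alveolar cells. Their part in the call of *Aldh1a7* was not tested.

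The low *Aldh1a1* signal of endothelial cells was set beside that of 8 other stromal genes (*Col1a1*, *Col3a1*, *Inmt*, *Gsn*, *Serping1*, *Bgn*, *Sparcl1* and *Fn1*), some of which endothelial cells can also express. The ratio of endothelial to alveolar CPM was 0.0653 and 0.0353 for *Aldh1a1*, and 0.0191 to 0.146 (median 0.0555) and 0.0214 to 0.141 (median 0.0263) for the 8 genes. *Aldh1a1* thus lay within their range in both libraries, with 2 of the 8 genes higher in each. At least 1 *Aldh1a1* UMI was found in 7.14% and 19.7% of endothelial cells, and whether these cells express the gene was not tested. Endothelial cells with no UMI of the 3 stromal rule genes held 19.6 and 45.0 CPM (2 and 56 UMIs), those with 1 held 289 and 95.3 CPM (4 UMIs in 7 cells and 38 in 68), and those with 2 held 0 and 118 CPM (0 UMIs in 1 cell and 24 in 24). In replicate 1 these counts are too low to order the steps, and the steps are made from genes of the class rule. The part of fibroblast transcripts in the endothelial value was not tested. *Aldh2* was at 989 and 804 CPM in endothelial cells with no stromal UMI, close to its level in all endothelial cells. Cells with general capillary markers held 1292 and 951 CPM of *Aldh2*, and those with aerocyte markers, of which there were 11 and 31, held 520 and 443 CPM. Replicate 1 held too few aerocyte-like cells for a test.

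In epithelial cells against alveolar fibroblasts, 4 of the 5 tested members were called, against 51.1% of all genes. The member not called, *Aldh1a3*, held 1 and 0 epithelial UMIs. It was not tested when only these 2 groups were fitted, since it did not pass the filter on low counts. *Aldh1a7* rose by 10.08 ± 0.37 on the log2 scale (adjusted p = 1.22e-12), a value that rests on 2 and 3 alveolar UMIs: the ratio of CPM was 807 (95% counting interval 222 to 6681) and 918 (305 to 4531). *Aldh3a1* rose too (5.46 ± 0.72, adjusted p = 9.34e-06), also against few alveolar UMIs (6 and 4). *Aldh1a7* and *Aldh3a1* reached the filter on low counts in both libraries only in epithelial cells, so they were tested because they were high there. The count of 4 of 5 is thus no result about the members. *Aldh1a1* fell (-7.50 ± 0.42, adjusted p = 4.80e-11). Its ratio to the alveolar level, 0.00195 and 0.00729, lay below the range of the 8 stromal genes in replicate 1 (0.00203 to 0.00565) and within it in replicate 2 (0.00202 to 0.0121). *Aldh2* fell as well (-0.94 ± 0.23, adjusted p = 0.00201). On the plain CPM scale its ratio was 0.313 and 0.405, and the TMM factor of epithelial less that of alveolar sums was -0.55 on the log2 scale, which raises epithelial values in the fit by as much.

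Most of the epithelial class held transcripts of alveolar type 2 cells, the makers of surfactant. A rule that also kept out cells meeting the marker threshold of another epithelial type, such as 5 UMIs of type 1 markers, left 293 of 930 and 9 of 101 cells as type 2-like, and the type 1 marker *Ager* had 6826 and 1971 UMIs in the class. At least 3 UMIs of *Abca3* and *Slc34a2* were found in 929 of 930 and 96 of 101 cells, and these held 68.8 and 73.0 CPM of *Aldh1a7* and 1.50 and 8.27 CPM of *Aldh1a1*. Club cells could not be compared, because only 2 cells of replicate 1 and 1 cell of replicate 2 in the epithelial class had 10 or more UMIs of the club genes *Scgb3a2* and *Cyp2f2*. These 3 cells held 2, 0 and 3 UMIs of *Aldh1a7* and none of *Aldh1a1*.

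Immune cells had lower levels of both abundant members, and 2 of the 5 tested members were called, against 52.4% of all genes. On the log2 scale *Aldh1a1* fell by 6.86 ± 0.42 (adjusted p = 2.25e-10) and *Aldh2* by 2.86 ± 0.25 (adjusted p = 1.99e-08). The members not called, *Aldh1a3*, *Aldh1a7* and *Aldh3a1*, had 0 immune UMIs in both libraries, and their place among the 5 rests on other groups. In a fit of immune and alveolar sums alone they did not pass the filter on low counts. Both members tested in that fit were called, as were 6473 of 13391 genes. The ratio of *Aldh1a1* to its alveolar level, 0.00148 and 0.00946, lay below the range of the 8 stromal genes in replicate 1 (0.00661 to 0.206) and within it in replicate 2 (0.00358 to 0.0714). Among immune types with at least 20 cells in both libraries, *Aldh2* stood at 210 and 191 CPM in monocyte-like and 181 and 129 CPM in neutrophil-like cells. In T-like cells, of which there were 9 and 46, it was at 0 and 17.9 CPM.

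**Figure D4:**
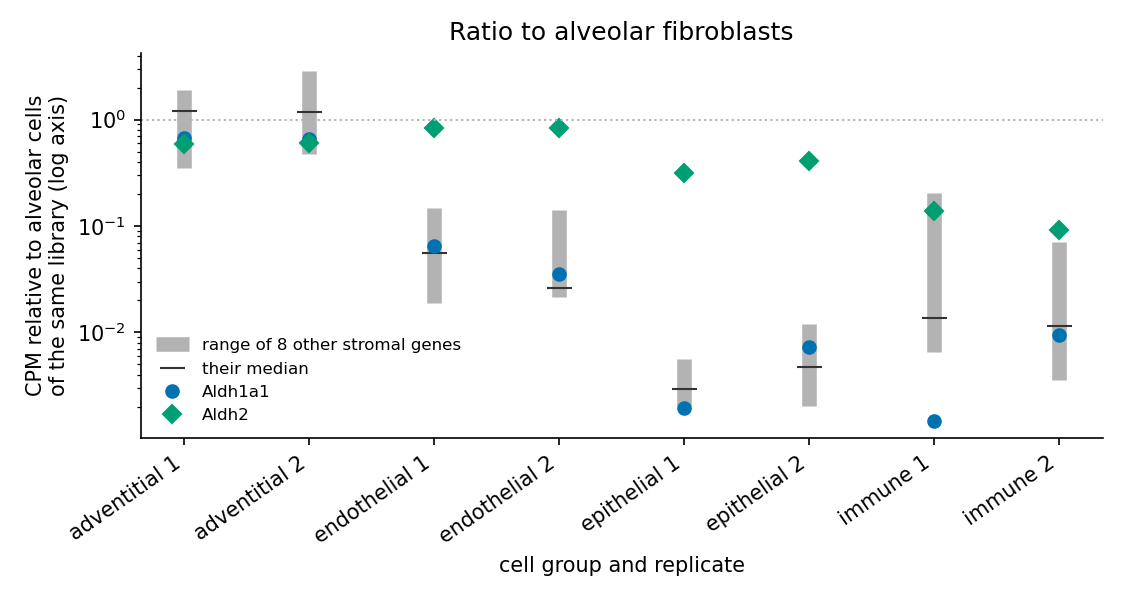
CPM in 4 groups relative to alveolar fibroblasts of the same library (y axis, logarithmic) for Aldh1a1, Aldh2 and the range and median of 8 other stromal genes, by group and replicate (x axis). Aldh1a1 lies within the range of the stromal genes in endothelial cells (0.0653 and 0.0353), whereas Aldh2 stays at 0.833 and 0.838 there and at 0.313 and 0.405 in epithelial cells.

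Of the 15 other aldehyde dehydrogenases listed, 11 passed the filter. Among all 13313 genes, 766 rose and 391 fell in adventitial, 1968 and 2425 in endothelial, 3243 and 3560 in epithelial, and 3213 and 3768 in immune cells, and the counts of both lists are to be read against these. In adventitial cells 1 rose and none fell against alveolar cells, where 8.69% of all genes were called (median log2 fold change -0.09, against -0.03 over all genes): *Aldh18a1*, of proline synthesis, at a mean of 13.6 CPM against 5.87 CPM. In endothelial cells 5 of 11 fell and none rose, where 33.0% of all genes were called (median -1.23, against -0.18), among them *Aldh7a1*, of lysine breakdown, at 25.1 and 22.2 CPM against 56.4 and 49.9 CPM. In epithelial cells 5 rose and 1 fell, where 51.1% of all genes were called (median 0.53, against -0.11), led by *Aldh1l1*, of folate metabolism, at 38.5 and 36.6 CPM against 6.74 and 3.12 CPM. In immune cells 2 rose and 3 fell, where 52.4% of all genes were called (median -0.68, against -0.18), with *Aldh6a1*, of valine breakdown, at 0 and 2.76 CPM against 32.6 and 42.3 CPM. The highest of the 15 in alveolar fibroblasts was *Aldh7a1*, far below *Aldh2* and *Aldh1a1* there.

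Genes that act before and after retinaldehyde oxidation were set beside *Aldh1a1*. Of 24 retinoid genes listed, 18 passed the filter. In adventitial cells 7 rose and 1 fell against alveolar cells (median log2 fold change 0.55, against -0.03 over all genes, of which 8.69% were called). The alcohol dehydrogenase *Adh7* had the smallest p (5.96 ± 0.33, SE; adjusted p = 2.27e-08), from 1.24 and 0.722 CPM to 125 and 25.0 CPM, and *Adh1* stood at 285 and 258 CPM against 126 and 125 CPM. *Rbp4*, the retinol carrier of plasma, was at 769 and 304 CPM against 51.5 and 42.2 CPM. In endothelial cells 3 rose and 5 fell (median -0.64, against -0.18, with 33.0% of all genes called). *Cyp26b1*, which degrades retinoic acid, was at 218 and 63.3 CPM there against 0.768 and 0.593 CPM in alveolar cells. In epithelial cells 3 rose and 9 fell (median -0.95, against -0.11; 51.1% of all genes called) and in immune cells 4 rose and 8 fell (median -0.78, against -0.18; 52.4% of all genes called). *Lrat* and *Adh1* fell in both classes along with *Aldh1a1*.

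The genes most like *Aldh1a1* over 7 fine types and both libraries (14 points) were *Gm26802*, *Ndrg2*, *Ccn2*, *Tbx2* and *Snhg18*, with Pearson's r of log2(CPM + 1) from 0.976 to 0.993. For *Aldh2* they were *Slc35g2*, *2410080I02Rik*, *Hnrnph3*, *Coq6* and *Mcts2* (r from 0.974 to 0.985). *Aldh1a7* could be ranked only over the 6 groups of the marker rule (12 points), where *Myo5b*, *Fhdc1*, *Wnk4*, *Foxa1* and *Mal* came first (r from 0.997 to 0.998). The points share libraries and differ mainly between stromal or epithelial cells and the rest, so these values describe a pattern and were not tested.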

How the data were processed

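The deposited files hold whole-number UMI counts per gene and barcode for each library (10x Genomics, 3′ kit), which the authors obtained with Cell Ranger 5.0.1 on mm10 (submitters' processing notes), without normalization. Groups were formed by marker UMIs alone, and the counts were summed by group and library. Sums were tested with edgeR 4.0.16 (TMM, filterByExpr, quasi-likelihood, two-sided, library as block, 5 groups in 1 fit), leaving the 13 rule genes out of counts of calls. The block rests on each library giving 1 sum to every group. The fit was tested on simulated counts with known changes, made only in more abundant genes of the adventitial sums. The simulation gave all groups a shared profile and did not cover the low members or the other comparisons. DESeq2 1.42.0 and other filters were alternatives. No doublet caller was run. Club-like and aerocyte-like cells fell under the minimum of 20 per library and were only described. Identities were computed with Biopython 1.88 on GENCODE M21 transcripts, taking the longest coding sequence. The 6 members were named, with up to 4 genes per list and comparison by smallest adjusted p, not all of which are printed, and the 5 genes most alike among those reaching 10 CPM. The likeness over rule groups was added after seeing the data. Members and lists were chosen with earlier results of these data known.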

Additional observations from a re-analysis of the deposited data

Results flagged for a closer look

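Signal of *Aldh1a1* was found in sets of barcodes that no comparison was made for, some of whose cells also counted in the classes compared. Barcodes with markers of both stromal and endothelial cells held 726 and 949 CPM in replicates 1 and 2. Cells with mural markers (6 and 48) held 523 and 640 CPM, and 4 and 26 of them also belonged to the stromal class. Among 7 barcodes with club markers, of which 3 were in the epithelial class, the highest *Aldh1a1* counts were 17 UMIs in replicate 1 and 154 UMIs in replicate 2. The barcode with 154 held 143473 UMIs, 56266 of *Scgb1a1*, the secreted protein of club cells, and 17 of *Aldh1a7*, met 3 classes and had 16 UMIs of the stromal rule genes. The part of merged cells in these values was not tested.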

How the results depend on the processing

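Of 66 alternative fits of 6 called differences (*Aldh1a1* in endothelial, epithelial and immune cells, *Aldh2* in epithelial and immune cells, *Aldh1a7* in epithelial cells), 64 were called, and none changed sign. The 2 exceptions were *Aldh2* in epithelial cells without the replicate block (-0.96, adjusted p = 0.0798) and in cells of at least 4000 UMIs (-0.90, adjusted p = 0.0824). The call of *Aldh1a7* in endothelial cells was made in 10 alternatives and not tested with only the 2 groups. These 10 fits reuse the same few UMIs of 1 library, so their number adds no support to the call. Between adventitial and alveolar cells, genes called went from 1157 to 614 with DESeq2, 253 without the replicate block and 2768 with only the 2 groups in the fit. Members called went from 0 of 5 to 4 of 5 with only the 2 groups (all genes 21.1%), 3 of 6 with no filter on low counts (7.61%), 1 of 3 after thinning (8.73%) and 1 of 4 with at least 4000 UMIs (9.93%). With only the 2 groups, *Aldh1a2* and *Aldh3a1* reached the filter through their adventitial sums alone. Between adventitial and alveolar cells *Aldh2* was called with no filter (-0.73), only the 2 groups (-0.70) or thinning (-0.80), and *Aldh1a1* with only the 2 groups (-0.55). *Aldh2* in endothelial cells was called with no filter (-0.58) or with other class markers at 0 (-0.64). The cause was not tested.

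With 1 library at a time no test is possible, and log2 ratios of CPM to alveolar cells ranged from -0.61 to -0.58 (*Aldh1a1*) and -0.75 to -0.74 (*Aldh2*) in adventitial, -4.82 to -3.94 and -0.26 to -0.26 in endothelial, -9.00 to -7.10 and -1.67 to -1.30 in epithelial, and -9.40 to -6.72 and -3.46 to -2.87 in immune cells, with 9.66 to 9.84 for *Aldh1a7* in epithelial cells. Of 30 orders of group pairs, 25 to 30 were kept under each alternative, with 25 in replicate 1 alone. With other class markers at 0, endothelial *Aldh1a1* was at 0.0253 and 0.0216 of the alveolar level. The planned tests of club-like and aerocyte-like cells were not run, since a library held under 20 cells. Endothelial cells of replicate 1 (56) limit the depth.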
